A study of Mus musculus with 12 samples.

Results

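The libraries described here are the 4 wild-type (WT) RNA-seq libraries of a series of 12, chosen by their genotype label alone. Each was made from CD31+ endothelial cells of the forebrain of 1 mouse embryo at the embryonic stage E15.5, and the embryos carry the labels JE1, JE6, KE8 and LE6. The other 8 libraries come from Gpr124 (Adgra2) mutant embryos and enter no result here. Per the study's methods, digested forebrains were sorted for CD31+ cells that lacked CD140b, CD45 and the dead-cell dye 7AAD. RNA was then amplified with a SMART-Seq V4 ultra-low input kit from poly(A) transcripts, so that each value is an average over all the sorted endothelial cells of 1 forebrain. Neither the number of cells per embryo nor the meaning of the letters J, K and L in the labels is given in the sources used here. Levels are TPM, in which the reads of a gene are corrected for its length and every library adds up to an equal sum, so that genes can be compared with each other. Whenever 4 values are given they stand in the order JE1, JE6, KE8 and LE6, and errors are SDs over these 4 embryos.

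Endothelial cells of the forebrain build the blood-brain barrier during embryonic life. They seal their contacts with tight junctions, keep vesicular transport low, and carry glucose, amino acids and other solutes on dedicated membrane transporters. Vessel growth into the forebrain depends on VEGF from the neural tissue and on WNT7 ligands, which signal to the endothelium through Frizzled receptors with the help of GPR124 and RECK, and β-catenin signaling in turn maintains barrier genes. At mid-gestation these vessels still sprout and divide while the barrier is forming.

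Reads counted on genes numbered between 17063091 in JE6 and 22551163 in JE1, and 1 TPM corresponded to between 6.54 and 7.79 reads per kilobase of gene. A mean of at least 1 TPM was reached by 16384 of 49315 genes, of which 12031 were protein coding, and a mean of at least 1000 TPM by 95 genes. JE6 stood apart in composition: Gm23935, a 57-base gene annotated as a miRNA, measured 24731, 124586, 18049 and 17502 TPM. This short gene held 0.272% of the reads but 12.5% of the TPM of JE6, against at most 2.47% of the TPM in the other libraries, and all other genes of JE6 share what remains. As a result the median protein-coding gene at 10 TPM or more stood at 0.89 of its 4-library mean in JE6, and at 0.985 of it when TPM was recomputed over protein-coding genes only. Xist, transcribed from the inactive X chromosome, was at 0.0573, 69.1, 0.0252 and 66 TPM and the Y-linked Ddx3y at 66.6, 0.0294, 79.8 and 0.0877 TPM. JE1 and KE8 thus held Y-linked transcripts and JE6 and LE6 held Xist, so sex did not follow the letters.

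Genes that define endothelium were abundant in every embryo. Of 36 endothelial identity genes, 36 reached 1 TPM in all 4 libraries, with a median of 426 TPM, and their sum was 29084, 25179, 29859.8 and 31192 TPM. Over all 21811 protein-coding genes, 52.1% reached 1 TPM in all 4 libraries and the median was 2.29 TPM. Cdh5, which encodes the adherens junction protein VE-cadherin (ENSMUSG00000031871, chromosome 8, 104101625 to 104144511, plus strand, GRCm38), measured 282, 346, 307 and 291 TPM. Pecam1, the CD31 antigen used in the sort (ENSMUSG00000020717, chromosome 11, 106654217 to 106750628, minus strand), measured 462, 448, 489.7 and 566 TPM. Kdr, the main VEGF receptor of endothelium (ENSMUSG00000062960, chromosome 5, 75932827 to 75978458, minus strand), measured 704, 679, 826 and 867 TPM. These 3 genes varied by no more than 11.9% (coefficient of variation, CV) between embryos. Far above them stood the barrier genes Cldn5, the main claudin of brain endothelial tight junctions (ENSMUSG00000041378, chromosome 16, 18776847 to 18778260, plus strand), at 9172, 7613, 9816 and 10108 TPM, and Slc2a1, the glucose transporter GLUT1 (ENSMUSG00000028645, chromosome 4, 119108711 to 119137983, plus strand), at 4239, 3477, 4058 and 4201 TPM. All 5 markers were present at similar levels in the 4 embryos. The lowest of the 36 identity genes was Tal1, a transcription factor of early endothelial and blood development, at 13.3 ± 1.37 TPM.

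**Figure D1:**
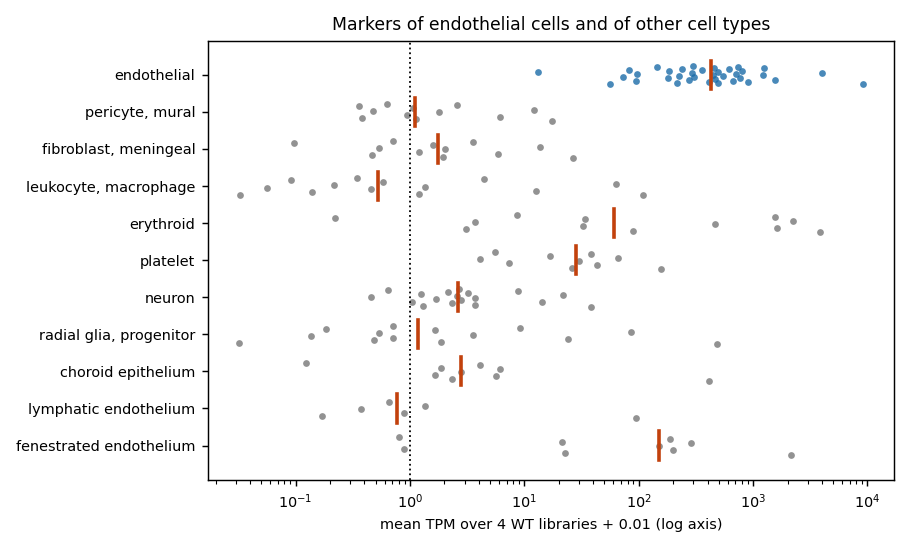
Each point is 1 marker gene at its mean TPM over the 4 WT libraries (x axis, log scale, 0.01 added), grouped by cell type, with the median of each group as an orange bar and 1 TPM as a dotted line. All 36 endothelial genes (blue) lie above 13 TPM with a median of 426, whereas the medians of pericyte, fibroblast, leukocyte, neuron and radial glia markers lie between 0.511 and 2.64 TPM. The medians of choroid epithelium and lymphatic markers are 2.77 and 0.761 TPM. Those of fenestrated endothelium, erythroid and platelet markers are higher, at 152, 61 and 28.3 TPM.

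Markers of most other cell types were low but not absent. In pooled cells, fewer cells of a type and less RNA per cell cannot be told apart. Of 12 pericyte and mural cell genes, 4 reached 1 TPM in every library and their sum was 42.3, 37.5, 69.2 and 31 TPM. Pdgfrb, the CD140b antigen that was gated out, measured 2.98, 1.9, 3.96 and 1.47 TPM, and Rgs5, a pericyte signaling regulator, 17.2, 17.2, 23.6 and 11.6 TPM. The pan-leukocyte gene Ptprc (CD45), also gated out, was at 0, 0, 0.0822 and 0.0083 TPM, and of the 14 leukocyte and macrophage genes 4 reached 1 TPM in every library and 6 stayed below it in all 4. Neuronal genes summed to 127, 91.5, 68.2 and 163 TPM over 18 genes, highest in LE6 and lowest in KE8. The radial glia list owed 79.1% of its sum to Vim, a filament protein that endothelium also makes.

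Some transcripts of other cell types differed between embryos. Ttr, the thyroid hormone carrier that choroid plexus epithelium makes in bulk, measured 225, 798, 516 and 115 TPM and was higher in JE6 and KE8 than in JE1 and LE6. KE8 held the most of Dcn, a matrix proteoglycan of fibroblasts, at 5.91, 5.35, 37.9 and 5.69 TPM, and of Ptgds, a prostaglandin synthase of the meninges, at 3.81, 4.91, 119 and 6.82 TPM. In LE6 the 10 platelet and megakaryocyte genes summed to more than in the others (344, 313, 308 and 612 TPM), led by the platelet chemokine Pf4 (129, 117, 127 and 255 TPM). Globin transcripts were high throughout, with a sum of 11806, 9226, 11019 and 7084 TPM over 11 genes. Hba-a1 measured 4279.6, 3830.2, 3930.4 and 3351 TPM and its near-identical neighbor Hba-a2 2401, 1199, 2321 and 519 TPM, and reads shared by such a pair cannot be assigned with certainty. The part these transcripts play in the spread of other genes was not tested.

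The most abundant transcripts joined housekeeping and barrier genes. The 10 most abundant genes of each library held 9.6% to 19.3% of its TPM, ribosomal protein genes 4.45% to 5.02% and mitochondrially encoded genes 2.51% to 3.52%. With mitochondrial, ribosomal protein and non-coding genes set aside, the order began with Actb (β-actin, 12168 ± 2332 TPM), Fth1 (ferritin heavy chain, 11120.1 ± 1479 TPM), Tmsb4x (an actin-binding thymosin, 10678 ± 562 TPM) and then Cldn5 (9177 ± 1114 TPM). The values of these 4 overlapped from each to the next. Bsg, the basigin chaperone of lactate carriers (7396 ± 1298 TPM), Sparc, a matrix-binding glycoprotein (5604 ± 617 TPM), and Itm2a, a membrane protein (5457 ± 760.4 TPM), followed. The glucose carrier Slc2a1 held place 9 (3994 ± 353 TPM) and the glutamine carrier Slc38a5 place 11 (3664 ± 605 TPM). Among the 30 highest were also the apelin receptor Aplnr, the matrix genes Col4a1 and Sparcl1, the collagen chaperone Serpinh1 and the iron storage gene Ftl1. Both amino acid transporter subunits Slc3a2 and Slc7a5 were in this group too. For 28 of these 30 genes the CV was 23.6% or less, the value of the globin Hbb-bs, while it was 52.4% for Slc7a5 and 80.4% for Igfbp7, a secreted protein of the vessel wall.

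**Figure D2:**
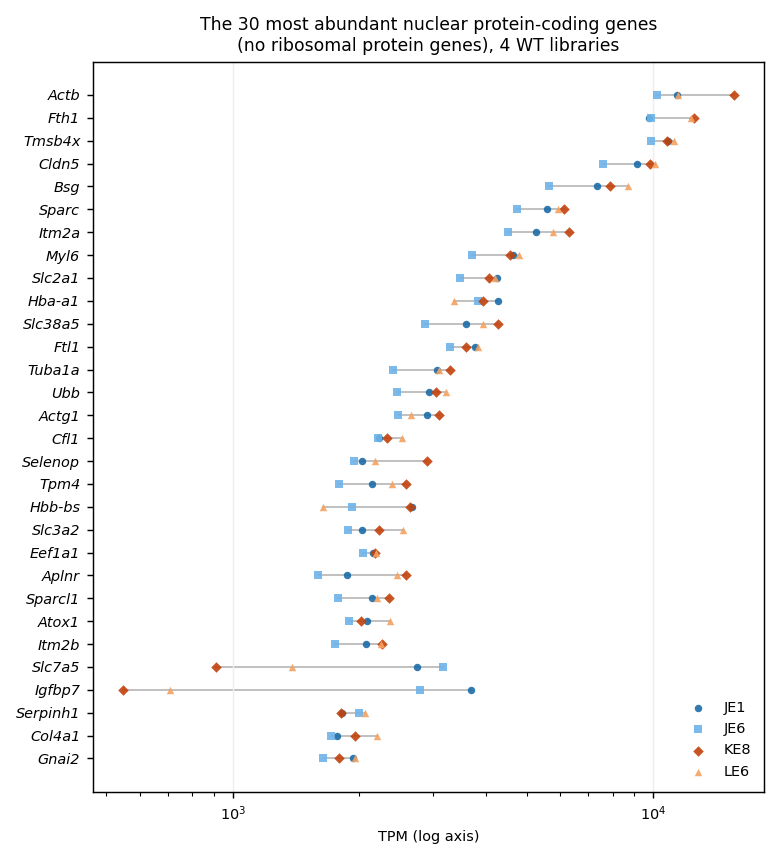
The 30 most abundant nuclear protein-coding genes other than ribosomal protein genes, in order of mean TPM, with 1 symbol for each WT library on a log axis and a gray line from the lowest to the highest. Igfbp7 (3695, 2789, 549 and 708 TPM) and Slc7a5 (2736, 3157, 909 and 1378 TPM) are the 2 genes whose JE1 and JE6 values stand far above KE8 and LE6.

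Junction genes were dominated by 1 claudin. Of 35 claudin genes, 3 reached 1 TPM in every library, 27 stayed below it in all 4, and Cldn5 held 99.7% of their summed TPM. The next, Cldn12, measured 16.5, 12.3, 21.8 and 14.5 TPM. Among the 34 membrane proteins of tight junctions, Cldn5 was followed by the adhesion molecule Esam (1523, 1308, 1575 and 1836 TPM), the tricellular junction receptor Lsr (582, 490.0, 626 and 671 TPM) and the junctional adhesion molecule F11r (449, 422, 440.2 and 451 TPM), and each step of this order exceeded the spread, with no overlap of the 4 values. Ocln, which encodes occludin, at 160.3, 134, 209 and 194 TPM and Jam2 at 118, 101, 164 and 146 TPM came next and overlapped with each other. On the cytoplasmic side, β-catenin (Ctnnb1) measured 711, 636, 790.5 and 822 TPM, α-catenin (Ctnna1) 429.8, 384, 495 and 461 TPM and the scaffold ZO-1 (Tjp1) 141, 141, 221 and 197 TPM. None of the 11 tight junction membrane genes or 11 scaffold genes at 10 TPM or more was at least 2 times higher in both J libraries than in both others, a split that 3.13% of all 8118 protein-coding genes at this level showed.

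A few solute carriers were among the most abundant genes, while the family as a whole was at the level of other genes. The 382 genes of the SLC families made up 2.64 ± 0.171% of TPM, 201 of them (52.6%, against 52.1% of all protein-coding genes) reached 1 TPM in every library, and the 3 highest held 37.3% of the sum. Slc2a1 (glucose) and Slc38a5 (glutamine and other neutral amino acids) overlapped, at 4239, 3477, 4058 and 4201 and 3581, 2861, 4271 and 3942 TPM, and both lay above all other SLC genes in every library, except that Slc7a5 exceeded Slc38a5 in JE6. Slc3a2, the heavy subunit shared by several amino acid exchangers, measured 2027, 1883, 2224 and 2539.9 TPM. Its large neutral amino acid partner Slc7a5 (LAT1) measured 2736, 3157, 909 and 1378 TPM, above Slc3a2 in JE1 and JE6 and below it in KE8 and LE6, so their order differed between embryos. Further amino acid carriers were Slc38a2 (1347 ± 211 TPM), Slc1a4 (1008 ± 157 TPM), Slc38a3 (695 ± 109.9 TPM) and the cationic carrier Slc7a1 (473 ± 29.9 TPM). The iron exporter ferroportin (Slc40a1) stood at 560.2 ± 114 TPM, the taurine carrier Slc6a6 at 446 ± 58.6 TPM, the thyroid hormone carrier Slco1c1 at 441 ± 92.7 TPM and the organic anion carrier Slc22a8 at 299 ± 45.2 TPM. Slc25a5 (1154 ± 130.3 TPM) and Slc25a4 (458 ± 41 TPM) exchange ADP and ATP across the mitochondrial inner membrane and are not plasma membrane carriers.

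ABC transporters, the efflux pumps and lipid exporters of the barrier, had lower values at the top of their list than the SLC carriers. Of 50 genes 25 (50%) reached 1 TPM in every library, and their sum was 0.133% of TPM. Their median was 1.81 TPM, against 2.07 TPM for the SLC genes, so typical members were alike. Abcg2 (breast cancer resistance protein) led at 277, 249, 335 and 317 TPM, above the cholesterol exporter Abca1 (209, 214, 244 and 229.9 TPM) in every library and without overlap. The other classical efflux pump, Abcb1a (P-glycoprotein), measured 92, 71.2, 109.7 and 107 TPM, and Abcc4 (MRP4) 35.2, 25.9, 37.4 and 30.5 TPM. The ranges of Abcb1a and Abcg2 lay far apart. Abcf2, between them at 126 ± 10.4 TPM, belongs to a branch without membrane domains and is not a pump.

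Genes of vesicle traffic were present at intermediate levels. Mfsd2a, a lysophospholipid carrier known for restraining transcytosis at the barrier, measured 1362, 1098, 1317 and 1493 TPM and exceeded the caveolar coat gene Cav1 (561, 524, 773 and 680.3 TPM) in all 4 embryos without overlap. The cavins Cavin3, Cavin1 and Cavin2 stood at 257 ± 17.8, 224 ± 26.1 and 102 ± 14.9 TPM. Plvap, which forms the diaphragms of fenestrae and caveolae and is lost as the barrier matures, measured 487, 427, 83.4 and 147 TPM: JE1 and JE6 lay above both others by 3.97 times on average. A single mean for Plvap (286 ± 201 TPM) therefore describes none of the 4 embryos. Lymphatic genes were low, with Prox1 at 0.811, 0.656, 0.646 and 0.489 TPM and Lyve1 at 0.836, 0.471, 1.24 and 0.938 TPM, apart from the VEGFC receptor Flt4 at 86.4, 92, 96.4 and 101 TPM, which sprouting blood endothelium also carries.

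Receptors formed the third group. Of 163 receptor genes 100 reached 1 TPM in every library, with a median of 4.76 TPM. Aplnr, the apelin receptor of veins and sprouts, was highest at 1865, 1597, 2584 and 2462 TPM, above every other receptor in all 4 embryos without overlap. Tie1 (801, 754, 815 and 856 TPM), Kdr (704, 679, 826 and 867 TPM) and the angiopoietin receptor Tek (584, 485, 725 and 669 TPM) followed and overlapped in sequence. The decoy VEGF receptor Flt1 lay below these 3, at 298, 247, 307 and 338 TPM, and the VEGF co-receptor Nrp1 at 148, 142, 165 and 192 TPM. Adhesion receptors of the G protein-coupled family were led by Adgrl4 (544 ± 99.4 TPM), Adgre5 (346 ± 35.5 TPM) and Adgrf5 (269 ± 54.3 TPM), and the sphingosine-1-phosphate receptor S1pr1, which stabilizes vessels, measured 469, 360.1, 517 and 480.0 TPM. In the TGFβ and BMP family the co-receptor Eng (389, 552, 405 and 434 TPM) stood above Acvrl1 (206, 174, 234 and 227 TPM) and Tgfbr2 (179 ± 26.8 TPM). Guidance receptors were headed by Robo4 (217 ± 21.1 TPM), Plxnd1 (122 ± 33.7 TPM) and Unc5b (83.6 ± 18.6 TPM). Of the 67 receptor genes at 10 TPM or more, 1 (1.49%) showed the J split, Notch4, against 3.13% of all genes at this level.

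Components that receive WNT signals were modest in level. Of 21 receptor and co-receptor genes 14 reached 1 TPM in every library, and the 8 at 10 TPM or more had a median CV of 13.5%, against 12.9% over all protein-coding genes at this level. Fzd6 was the highest at 227, 193, 198 and 203 TPM, followed without overlap by Tspan12, a tetraspanin that assists Norrin signaling, at 92.1, 80.1, 104 and 88.8 TPM and by Fzd4, its Frizzled partner, at 47.9, 38, 60.4 and 55 TPM. Adgra2, which encodes GPR124, measured 42.9, 51.1, 28.3 and 31.9 TPM and its partner Reck 19.2, 21.2, 23.5 and 25 TPM. Adgra2 exceeded Reck in each embryo, with higher values in JE1 and JE6 than in KE8 and LE6. The co-receptors Lrp6 (15.2, 16.5, 11.1 and 12.9 TPM) and Lrp5 (5.88, 6.34, 2.46 and 2.14 TPM) were lower. Of the nuclear partners of β-catenin, Lef1 measured 39.3, 38.4, 40.4 and 40.6 TPM, a CV of 2.57%, Tcf7 82.3, 85.9, 42.5 and 49.3 TPM, Tcf7l1 30.8, 29.3, 9.94 and 12.3 TPM and Tcf7l2 13.1, 15.1, 16.3 and 16.7 TPM. Tcf7 and Tcf7l1 were higher in both J libraries. The WNT-induced inhibitor Apcdd1 measured 885, 915, 337 and 321 TPM, with 2.74 times higher values in the J libraries.

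NOTCH receptors gave a similar contrast between 2 members of a family. Notch1 measured 89.4, 84.3, 83.1 and 98.2 TPM, even over the embryos, and Notch4, whose expression is largely endothelial, measured 149, 108, 27 and 40.3 TPM. Over the 4 libraries the means of Notch1 and Notch4 did not differ beyond their spread (88.8 ± 6.88 and 81.3 ± 57.7 TPM), yet Notch4 exceeded Notch1 in JE1 and JE6 and fell short of it in KE8 and LE6. The ligand Dll4, which restrains sprouting, measured 187, 154, 163 and 248 TPM. Other ligands made by these cells were Efna1, an ephrin that led the list of 58 ligands at 708, 571, 687 and 784 TPM, the vasoactive peptide Adm (234 ± 52.3 TPM), the matricellular Ccn1 (212 ± 46.9 TPM), Igf2 (208 ± 17.2 TPM), apelin (Apln, 233, 189.7, 116 and 139 TPM) and the pericyte attractant Pdgfb (222, 174, 93.1 and 99.8 TPM). Apln and Pdgfb were higher in both J libraries than in both others, though short of 2 times between the nearest values. Among basement membrane genes Sparc (5587, 4745, 6141 and 5945 TPM), Col4a1 (1766, 1707, 1952 and 2197 TPM) and Col4a2 (1167, 1041, 1230.2 and 1383 TPM) stood in that order without overlap, followed by the nidogens Nid1 (603 ± 72.5 TPM) and Nid2 (487 ± 49.9 TPM). The 25 basement membrane genes together held 1.15 ± 0.105% of TPM. Of integrins, which bind this matrix, Itgb1 (890.1, 730.1, 925 and 1028 TPM) and Itga5 (241, 231, 253 and 316 TPM) were the highest.

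SOXF factors and inhibitors of helix-loop-helix factors were among the most abundant transcription factor genes. Of 360 such genes 210 reached 1 TPM in every library, and no mean reached 1000 TPM. Id3, one of these inhibitors, measured 1026, 840.1, 1241 and 831 TPM, and the SOXF factor Sox18 962, 775, 941 and 910.2 TPM. The values of Id3 and Sox18 overlapped, so their order is not resolved. Lmo2, a scaffold of blood and endothelial gene regulation (681 ± 143 TPM), Tsc22d1, a leucine zipper protein (626, 481, 732 and 824 TPM), and Id1 (546, 387, 721 and 337 TPM) came next. A second SOXF factor, Sox7, measured 449, 454, 484 and 476 TPM (CV 3.62%), and the third, Sox17, an arterial regulator, measured 169, 132, 34.7 and 50.3 TPM. Of the ETS family, which drives endothelial gene expression, Fli1 (358 ± 56.3 TPM) and Ets1 (276 ± 19.7 TPM) overlapped at the top, with Elk3 (215 ± 15.4 TPM) and Ets2 (139 ± 8.1 TPM) next and Erg at 56.2 ± 8.25 TPM. The forkhead factors Foxf2 and Foxq1, both enriched in brain endothelium, measured 341, 301, 192 and 180.2 and 262, 198, 39.7 and 62 TPM. The flow-responsive Klf2 measured 488, 399, 68.3 and 114 TPM and would hold place 7 among transcription factors from JE1 and JE6 and place 28 from KE8 and LE6. Of 39 homeobox genes of the HOX clusters 1, Hoxd8, reached 1 TPM, at 2.81, 3.06, 1.98 and 1.55 TPM.

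**Figure D3:**
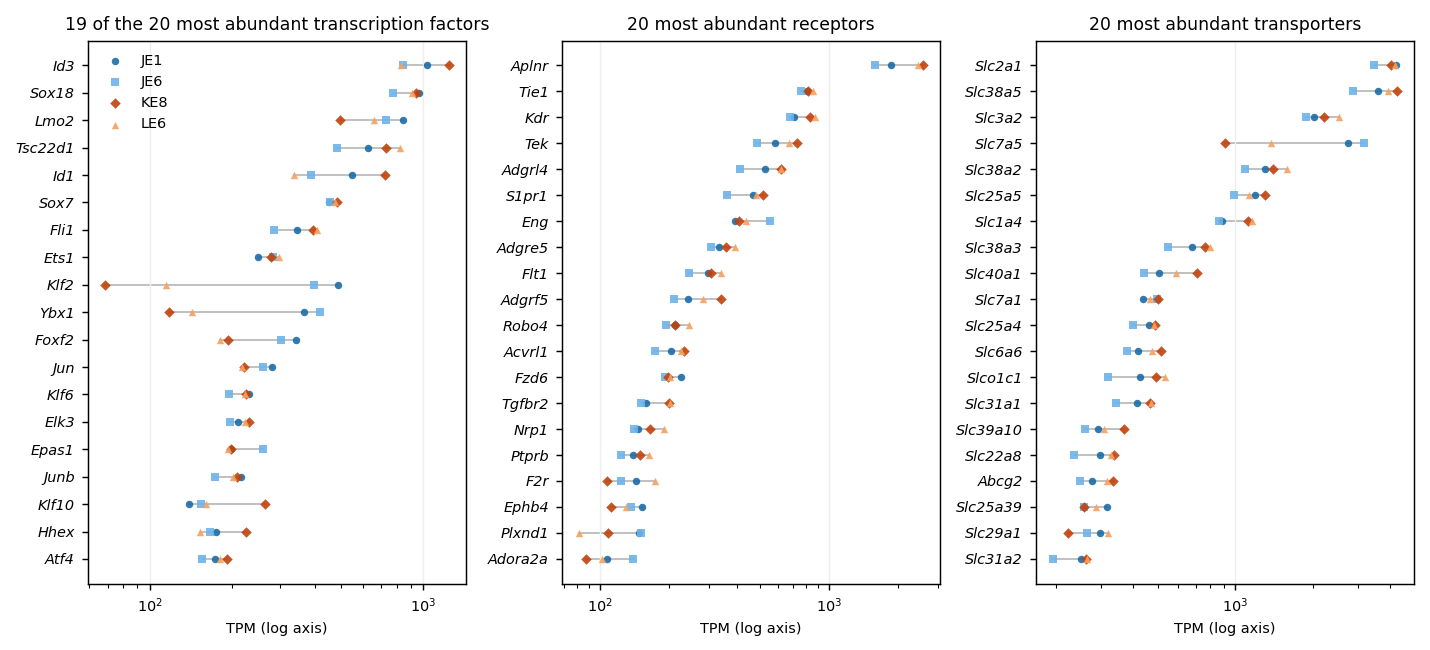
Of the 20 most abundant genes of each kind, 19 transcription factor, 20 receptor and 20 transporter genes in order of mean TPM, with 1 symbol for each WT library on log axes and a gray line from the lowest to the highest. Klf2 and Ybx1 among transcription factors and Slc7a5 among transporters have both J libraries far to the right of KE8 and LE6, whereas the 20 receptors have no such gene.

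The cells also held transcripts of arterial, venous and sprouting endothelium and of division. Gja4, the arterial gap junction protein connexin 37, measured 1195, 1049, 1168 and 1380.3 TPM, and all 15 arterial genes reached 1 TPM in every library. Of 12 venous genes 11 did so, with a median of 60.4 TPM against 39.8 TPM for the arterial list. They were led by Slc38a5 and Aplnr, whose values are given above. Nr2f2, the factor that sets venous fate, measured 13.5, 13.3, 16.5 and 11.7 TPM. The adhesion gene Vwf and the receptor gene Ackr1 stood at 94 ± 18.4 and 33 ± 6.88 TPM. Of 22 proliferation genes, 22 reached 1 TPM in every library, from Cdc20 at 217, 195, 189 and 211 TPM down to 13.3 TPM, and their median CV was 9.76%.

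Agreement between embryos was close for most genes. Over the 8118 protein-coding genes at 10 TPM or more the median CV was 12.9%, against a median counting error of 3.01%. For 80% of the genes the CV stayed under 20%, and for 287 genes it exceeded 50%. In TPM as deposited the smallest CVs included those of Crtc2, a coactivator of CREB, at 44.4, 44.4, 44.6 and 44.8 TPM and Gapvd1, an endocytic regulator, at 50.6, 50, 49.8 and 49.9 TPM. Both CVs (0.437% and 0.675%) lay below the counting error of these genes (2.82% and 1.45%), so such a rank among many genes is no sign of a steadier gene. The abundant imprinted gene Mest measured 1463, 1411, 1428 and 1464 TPM. The 15 with the largest CV included Ptgds, Dcn and the Y-linked Ddx3y, whose values are given above, and the T-box factor Tbx1 at 113, 98.9, 5.59 and 6.84 TPM. The biological CV common to all genes, estimated with edgeR, was 22.8% over the 4 embryos, but 12% between JE1 and JE6 alone and 17.5% between KE8 and LE6 alone. Across genes, Pearson's r of log2 TPM was 0.989 between JE1 and JE6 and 0.980 between KE8 and LE6, and it lay between 0.939 and 0.958 for the other 4 pairs.

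**Figure D4:**
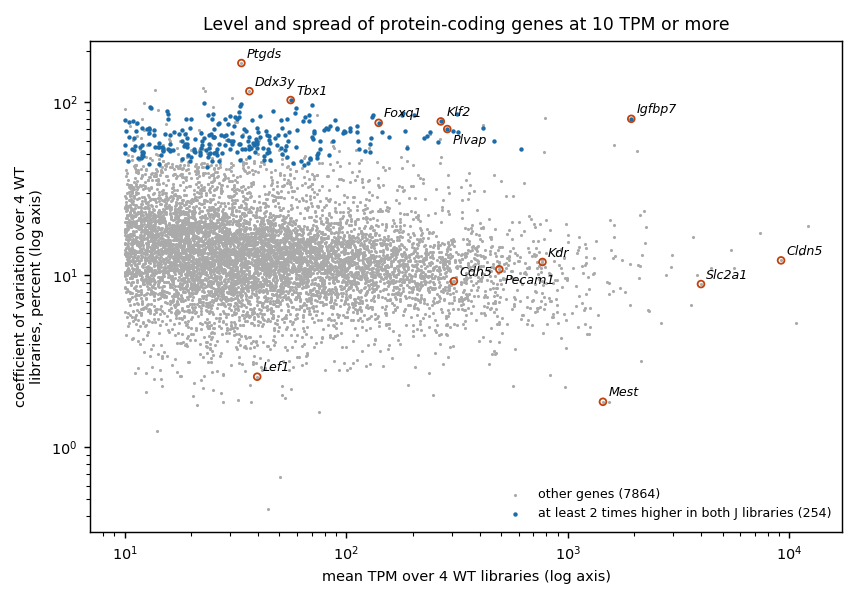
Coefficient of variation over the 4 WT libraries (percent) against mean TPM for 8118 protein-coding genes, both on log axes, with the 254 genes at least 2 times higher in both J libraries in blue and named genes circled. Cldn5, Slc2a1, Kdr, Pecam1 and Cdh5 lie between 8.85% and 12.1%, whereas Plvap, Foxq1, Klf2 and Igfbp7 lie above 50%.

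Most, but not all, of the wide genes split the embryos in the same way. In 254 of 8118 genes (3.13%) both J libraries were at least 2 times both of KE8 and LE6, and in 9 genes (0.111%) the reverse held. The first count was 345 with TMM scaling and 390 without LE6, though leaving out an embryo loosens the rule and can only raise the count. Of the 287 genes with a CV above 50%, 221 belonged to the first set and 8 to the reverse set. The others followed neither pattern. A gap of this size between the pairs in itself makes a CV large, so this overlap is partly built in. Transcription factors were 16 of 153 at this level (10.5%), among them Klf2, Foxq1, Sox17, Sox4, Jund and Tbx1. Of 21 regulators listed for brain endothelium, a list that shares genes with the transcription factors, 6 split, and of the 36 endothelial identity genes 2 (5.56%). These lists were chosen with earlier results of these data known, which limits what their shares can show. SLC carriers were 1 of 139 and junction membrane genes 0 of 11. The reverse set held H2-D1, a major histocompatibility gene, at 137, 123, 458 and 341 TPM. The side without J holds both K and L, and there are 2 embryos on each side. The letter J and whatever else JE1 and JE6 share therefore cannot be told apart, and a difference between the sides was given no p.

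This split moved with base composition. For each gene the 100 bases richest in G and C were found in its annotated transcript with the longest coding sequence. Genes high in both J libraries had a median of 85% GC in this window, against 73% for genes with no split, while GC over the whole transcript was 53.7% and 50.4%. Below 80% GC in the window 18 of 6173 genes (0.292%) were of this kind, and at 80% or more 235 of 1937 (12.1%). The share of transcription factors given above, 10.5%, lies near that of all genes with such a dense window. From 86% the share was 20.5%, and the median log2 ratio of J to the others rose from -0.203 at 70 to 74% to 0.571. The window and its limits were chosen after the values were seen, Spearman's rho across 8110 genes was 0.414, and genes are not independent replicates. Whether base composition plays a part in the split was not tested.

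**Figure D5:**
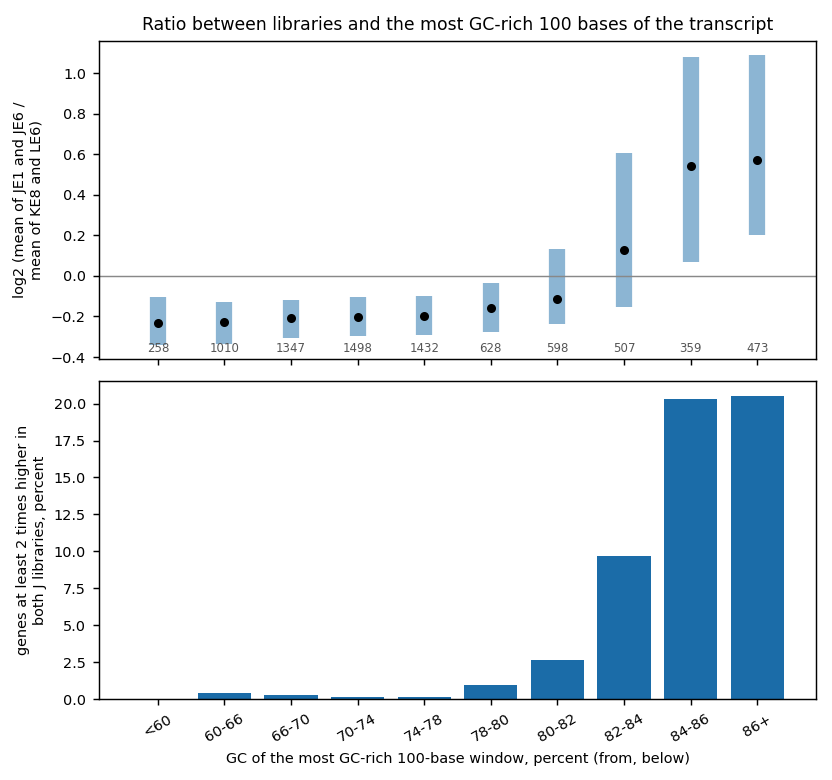
Protein-coding genes at 10 TPM or more, binned by the GC of their most GC-rich 100 bases (x axis, percent, with the number of genes above it): the upper panel gives the median (black) and the quartiles (blue) of the log2 ratio of JE1 and JE6 to KE8 and LE6, the lower panel the percentage of genes at least 2 times higher in both J libraries. The median lies between -0.232 and -0.196 up to 78% and is 0.542 at 84 to 86%.

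Examples of both kinds were chosen by whether they split, and their contrast is cleaner than that over all genes, where most genes with a dense window did not split and 7.11% of the split genes had a window below 80% GC. The following 100-base stretches are the most GC-rich coding stretch within 1 exon of 5 split genes and 4 genes that did not split, 5′ to 3′ on the coding strand, from the GENCODE vM21 transcripts on GRCm38, with each CG pair in capitals.
Tbx1: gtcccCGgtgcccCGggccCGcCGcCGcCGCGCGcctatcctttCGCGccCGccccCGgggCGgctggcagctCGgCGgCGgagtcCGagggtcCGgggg
Foxq1: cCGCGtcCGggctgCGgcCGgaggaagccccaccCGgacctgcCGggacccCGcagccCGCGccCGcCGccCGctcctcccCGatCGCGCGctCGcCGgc
Plvap: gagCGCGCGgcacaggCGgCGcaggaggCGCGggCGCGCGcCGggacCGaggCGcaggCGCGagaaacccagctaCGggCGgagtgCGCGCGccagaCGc
Notch4: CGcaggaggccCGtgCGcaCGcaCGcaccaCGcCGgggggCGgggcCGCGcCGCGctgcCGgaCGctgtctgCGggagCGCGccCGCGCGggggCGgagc
Klf2: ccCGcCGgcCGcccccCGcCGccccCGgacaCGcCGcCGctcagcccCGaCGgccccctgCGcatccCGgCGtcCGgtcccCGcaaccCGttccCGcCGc
Cldn5: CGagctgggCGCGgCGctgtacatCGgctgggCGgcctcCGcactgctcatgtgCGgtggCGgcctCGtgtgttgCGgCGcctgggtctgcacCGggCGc
Slc2a1: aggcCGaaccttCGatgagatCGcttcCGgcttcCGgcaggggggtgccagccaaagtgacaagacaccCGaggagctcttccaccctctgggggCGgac
Pecam1: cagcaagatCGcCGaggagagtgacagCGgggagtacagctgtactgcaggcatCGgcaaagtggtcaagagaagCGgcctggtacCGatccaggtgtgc
Tie1: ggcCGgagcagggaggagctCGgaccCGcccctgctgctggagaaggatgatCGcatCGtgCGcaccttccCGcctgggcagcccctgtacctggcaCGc

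In the split genes these stretches held 81 to 86 G or C and 18 to 21 CG pairs per 100 bases. For Tbx1 the stretch is chr16:18586675-18586774, minus strand, in exon 1 of 7, and JE1 and JE6 exceeded KE8 and LE6 17.1 times. That of Foxq1 is chr13:31559572-31559671, plus strand, in exon 1 of 1, with a ratio of 4.51. Plvap has its stretch at chr8:71507747-71507846, minus strand, in exon 3 of 6 and Notch4 at chr17:34587552-34587651, plus strand, in exon 30 of 30, far from the start of the coding sequence in both, with ratios of 3.97 and 3.83. The stretch of Klf2 is chr8:72319834-72319933, plus strand, in exon 2 of 3, with a ratio of 4.86. Among the even genes Pecam1 (chr11:106690937-106691036, minus strand, in exon 7 of 16) held 60 G or C and 6 CG pairs, Slc2a1 (chr4:119136335-119136434, plus strand, in exon 10 of 10) 65 and 7, Tie1 (chr4:118486504-118486603, minus strand, in exon 2 of 23) 71 and 8 and Cldn5 (chr16:18777469-18777568, plus strand, in exon 1 of 1) 75 and 14. Their ratios of J to the others were 0.861, 0.934, 0.931 and 0.842.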

How the data were processed

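The authors deposited reads per gene as whole-number counts for each library, on 49315 Ensembl genes with exon positions of GRCm38 (mm10), and a table of TPM values. The deposited TPM were equal to counts divided by the gene lengths in the same files and scaled to 1 common total, within 0.00498%. The submitters' processing notes name bcl2fastq 2.17, and the aligner, the counting program and strand use are not given in the sources used here. GENCODE vM21 held 49056 of these genes and gave names, types and transcripts. The 4 WT libraries (1 embryo each) were described without tests. An exact sign-flip test on 4 paired values cannot give a p below 0.125. Neighbors in an order of levels were said to differ where their 4 values did not overlap.

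Spread was the SD or CV over embryos, and the common biological CV came from edgeR 4.0.16 (estimateDisp with an intercept, TMM scaling, filterByExpr) in R 4.3.3. It was tested on simulated data that held split genes, where it came out somewhat above the value simulated, and DESeq2 1.42.0 gave alternative size factors. Counts limit precision: the depth was 17063091 to 22551163 reads on genes. Genes named are the 20 and 30 highest, the 5 markers, up to 12 members of each list, members below 1 TPM in all libraries, and the 15 largest and smallest CVs at 10 TPM or more. Ptprc, Mest and the GC windows were added with values in view, and the members and lists were chosen with earlier results of these data known. Alternatives were other detection limits, scalings, pseudocounts and filters, and leaving out each embryo. Counts of the 8 mutant libraries were not used. Some genes that the rule names are not reported here.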

Additional observations from a re-analysis of the deposited data

Results flagged for a closer look

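Of 106 values looked at (the genes given with their values, the sums of the marker lists and the composition of the libraries), 9 had 1 library far from the other 3, where chance flags about 1 in 20 of values chosen without regard to their spread. Ptgds, Dcn and Ptprc were not chosen in that way, so this rate does not apply to them. In JE6, Gm23935 was at 124586 TPM against 17502 to 24731 TPM in the others, the 10 most abundant genes held 19.3% of TPM against 9.60 to 10.5%, the 100 most abundant 34.2% against 25.2 to 26.6%, and protein-coding genes 80.5% against 91.5 to 92.3%, all of which include or exclude that same gene. In KE8, Ptgds was at 119 TPM against 3.81 to 6.82 TPM, Dcn at 37.9 TPM against 5.35 to 5.91 TPM, and Ptprc at 0.0822 TPM against 0 to 0.0083 TPM. All values of Ptprc lie far below the detection limit of 1 TPM, where few reads decide them. LE6 had Pf4 at 255 TPM against 117 to 129 TPM and a sum of platelet genes of 612 TPM against 308 to 344 TPM.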

How the results depend on the processing

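No test between groups was made, so no paired analysis was run. With 4 embryos every spread is itself uncertain. The count of genes at 1 TPM or more, the shares of TPM in the most abundant genes, the 36 endothelial markers and the membership of the highest 20 or 30 genes stayed within 1.5 times (counts) or 1 SD (shares) of their values under every alternative tried. For the shares this limit is weak, since JE6 widens the SD and leaving out 1 of 4 values moves a mean by less than that. The share of the 10 most abundant genes was 12.4% of TPM, but 8.72% without Gm23935 and 10.2% without JE6. From KE8 and LE6 alone, 28 of the 30 genes and 18 of the 20 transcription factors were shared with the order over 4 libraries. Of 115 markers of other cell types and of lymphatic and fenestrated endothelium, those at the limit in every library numbered 62, and 40 at 5 TPM and 33 at 10 TPM. The median CV of 12.9% became 9.37% with TMM, 9.46% with DESeq2 size factors, 10% over protein-coding TPM (chosen after seeing the data), and 20.5% without a filter on low values, and leaving out 1 embryo gave 9.70 to 14.4%, the lowest without JE6. The median SD of log2 TPM ran from 0.14 to 0.21 without 1 embryo. The common biological CV was 26.7% without a filter and 20.1 to 24.3% without 1 embryo, and 12% and 17.5% within the J libraries and within KE8 and LE6. Genes higher in both J libraries numbered 345 with TMM, 340 with DESeq2 size factors, 483 at 1.5 times and 69 at 3 times, and 277 to 390 without 1 embryo, the most without LE6. Leaving out an embryo loosens the rule, so these last counts could only rise and do not measure how stable the set is. A GC-rich stretch marked 92.9% of them at 100 bases, 50.2% by the GC of the 5′ UTR and 26.5% by that of the whole transcript. By the 5′ UTR, 10.6% of the GC-rich genes and 1.59% of the others split. By the whole transcript these shares were 7.87% and 2.56%. The cause was not tested. TMM moved the median log2 ratio of J to the others from -0.17 to -0.03. Of the genes given with values, 24 of 87 moved by more than 1 SD over protein-coding TPM, to at most 1.16 times. Leaving out 1 embryo moved single genes further, to between 0.122 and 1.33 times, the lowest without KE8.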
